A study of Mus musculus with 15 samples.

Results

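The genes of fatty acid oxidation and fatty acid synthesis were followed in A20 cells with and without *Foxp1* editing. Their 34 members were taken by name from a list of enzymes and were matched by gene symbol in the count table of every library, out of 41388 genes. Of these, 19 members burn fatty acids, 3 activate them by joining them to coenzyme A, and 12 build, lengthen or desaturate them. Low counts removed *Fads2* and *Fads3*, so that 32 of the 34 members were tested among 13904 genes.

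A20 cells were derived from a B cell lymphoma of BALB/c mice. RNA was sequenced from parental A20 cells, wild type for *Foxp1*, and from 4 CRISPR/Cas9 clones of that line. E6.1 and E6.2 carried a mutation in *Foxp1* exon 6, and E7.1 and E7.2 a mutation in exon 7. Each edited line was 1 clone, so a clone's other differences from parental cells cannot be told apart from the effect of its guide. Each line had 3 libraries, collected from separate passages per the labels, and p-values measure the spread between passages of 1 line.

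Long-chain fatty acids are activated in the cytosol, carried into mitochondria as carnitine esters, and shortened there in repeated turns of dehydrogenation, hydration, a second oxidation and thiolysis. Peroxisomes run a parallel spiral on very long and branched chains. In the opposite direction, citrate leaves mitochondria and is split to acetyl-CoA, which is carboxylated and built into palmitate, and elongases and desaturases then turn palmitate into longer and unsaturated chains. Sterol-responsive factors of the SREBP family are known to drive many synthesis genes, whereas PPAR factors and fasting are known to drive *Cpt1a* and other oxidation genes.

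Total counts lay between 26328054 and 39181530 per library, with a median of 35586010. Levels are given as CPM, counts scaled to the TMM-normalized library size. At this depth 3 counts, used as the smallest level that counting error allows to be read, corresponded to between 0.0751 and 0.118 CPM. *Foxp1* RNA lay between 102.2 and 165.9 CPM in the parental libraries, between 99.5 and 108.7 CPM in the 6 E6 libraries and between 37.1 and 64.3 CPM in the 6 E7 libraries. By the quasi-likelihood test of edgeR, with p adjusted after Benjamini and Hochberg as in every comparison here, it was lower in the libraries labelled E7.1 (log2 fold change -1.29, adjusted p = 0.00688) and E7.2 (-1.69, adjusted p = 0.00116), while the changes in E6.1 (-0.41, adjusted p = 0.765) and E6.2 (-0.39, adjusted p = 0.417) did not pass the threshold of 0.05. All 6 B cell markers were detected, with a summed level between 1229 and 2128 CPM. The 3 T cell markers summed to at most 0.0534 CPM, with *Cd3e* at 0 counts in every library, the 2 adipocyte markers to at most 0.363 CPM and the 2 hepatocyte markers to at most 0.0536 CPM. The 3 macrophage markers summed to between 0.421 and 7.74 CPM, nearly all of it from *Adgre1*, the 3 fibroblast markers to at most 0.225 CPM and the 2 epithelial markers to between 0.876 and 3.49 CPM. In cultured cells read in bulk, a change in the number of cells in some state and a change in RNA per cell cannot be told apart.

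The libraries E6.2 replicate 3 and E7.2 replicate 3 stood apart from the other 13 libraries. Their TMM factors, 0.906 and 0.826, were the lowest of the 15. They held the 2 highest levels of the 15 in 14.3% of all tested genes and the 2 lowest in 11.7%. Results that rest on these libraries are given with and without them.

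Per length of transcript, the members differed widely in parental cells. *Scd2*, a desaturase that makes monounsaturated fatty acids, led with 183.8 ± 63.2 RPKM (CPM per kilobase of transcript; SD, n = 3). *Acsl5*, an acyl-CoA synthetase, followed at 114.3 ± 16.7 RPKM, below *Scd2* in each parental library, although their SDs overlapped. *Acadl*, the long-chain acyl-CoA dehydrogenase, stood at 63.5 ± 7.57 RPKM, below both, followed by the citrate-splitting enzyme *Acly* at 41.7 ± 10.8 RPKM. *Scd1*, the paralog of *Scd2*, stood at 39.1 ± 32.0 RPKM and did not differ from *Acly* beyond its spread. The other 27 tested members lay between 25.6 RPKM (*Elovl5*) and 0.682 RPKM (*Acacb*). *Cpt1a*, the gate for entry of long chains into mitochondria, was low at 2.22 ± 0.789 RPKM. *Fads2* held 0 to 4 counts and *Fads3* 0 to 1 counts per library, so that no difference in these desaturases was detectable at this depth.

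**Figure D1:**
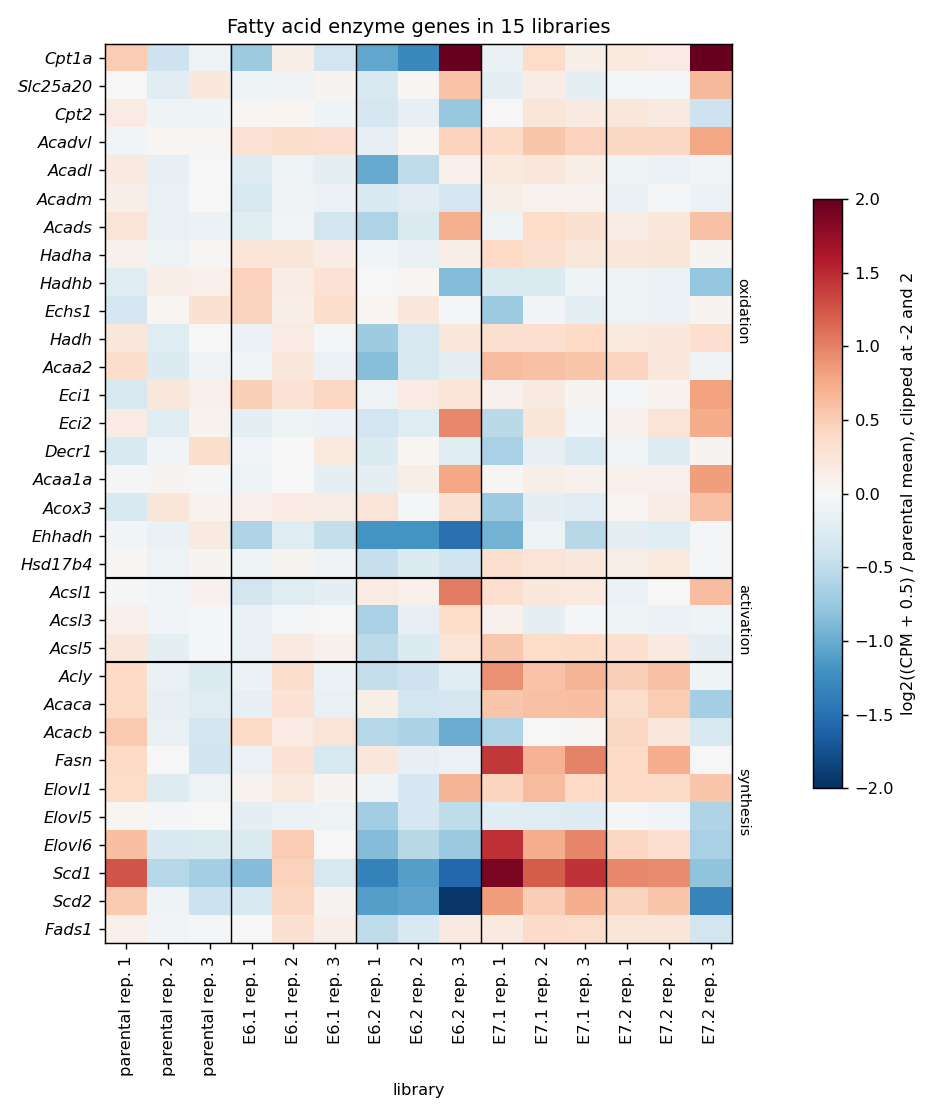
Each row is 1 of the 32 tested members and each column 1 of the 15 libraries. Color gives log2 of CPM plus 0.5 over the parental mean, clipped at -2 and 2, and horizontal lines part oxidation, activation and synthesis (with elongation and desaturation). E7.1 is red and E6.2 blue for *Acly*, *Elovl6*, *Scd1* and *Scd2*, and *Cpt1a* is dark red in both E6.2 replicate 3 and E7.2 replicate 3.

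The E7 clones were compared with the E6 clones to ask whether clones made with different guides shared their fatty acid gene levels. Of 32 members, 8 were higher in the E7 clones and 0 lower, a share of 25%. Among all tested genes 12.1% were called, with 6.21% higher and 5.85% lower. The 8 were *Scd1*, *Scd2*, *Elovl6*, *Fasn* and *Acly* of the synthesis genes, which is 5 of the 10 tested, and *Acaa2*, *Ehhadh* and *Hsd17b4* of the oxidation genes, which is 3 of 19. None of the 3 synthetases was called. All 10 tested synthesis and desaturation members had a positive log2 fold change, with a median of 0.58, against a median of 0.22 over the 19 oxidation members, of which 14 were positive, and of -0.03 over all tested genes. The share of positive values was 46.3% over all tested genes. At an unadjusted p under 0.05, 16 members were higher, beside 13.9% of all genes, and 1 (*Echs1*) was lower, beside 16.4%. The count of 8 was 2 without E6.1 replicate 1, 3 without E6.1 replicate 3 or E7.2 replicate 2, 4 without E7.2 replicate 1 and 16 without E6.2 replicate 3. The count over all tested genes moved as well, from 1677 to between 399 and 3847 with 1 of the compared libraries left out. Over 21 alternatives, the call was lost in 9 for *Scd2* (adjusted p up to 0.109), 7 for *Ehhadh* (0.0862), 6 for *Elovl6* (0.0724), 5 for *Acaa2* (0.0681), 4 for *Fasn* (0.0568), 2 for *Acly* (0.0506), 1 for *Hsd17b4* and 0 for *Scd1*. The clone pairs, given below, are not among these 21.

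*Scd1* (chromosome 19, 44394451 to 44407709 of GRCm38, reverse strand) had the greatest log2 fold change of the 8. Its level was 367.6, 103.5 and 96.1 CPM in parental replicates 1 to 3 and, in the same order, 84.4, 212.7 and 123.5 CPM in those of E6.1, 59.8, 71.9 and 51.7 CPM in those of E6.2, 569.4, 356.9 and 422.0 CPM in those of E7.1, and 300.6, 297.4 and 88.4 CPM in those of E7.2. E6.2 was low and E7.1 high in every replicate, parental replicate 1 was above its other replicates, and E7.2 replicate 3 alone among the E7 libraries fell within the E6 range. *Scd1* was 3.46-fold higher in the E7 than in the E6 clones (log2 fold change 1.79, SE 0.38, adjusted p = 0.0129).

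*Scd2* (chromosome 19, 44293676 to 44306864, forward strand) lies beside *Scd1*. Its level was 1384, 907 and 715 CPM for parental cells, 781, 1282 and 1004 CPM for E6.1, 451, 463 and 249.1 CPM for E6.2, 1722, 1359 and 1595 CPM for E7.1, and 1314, 1414 and 381.5 CPM for E7.2. The libraries high or low in *Scd1* were high or low here as well, and all 3 E6.2 libraries lay below every parental library. *Scd2* was 2.02-fold higher in the E7 clones (log2 fold change 1.01, SE 0.29, adjusted p = 0.0389). Pairs that matched both paralogs were left out by the authors' counting, so the counts of *Scd1* and *Scd2* are uncertain where their sequences are shared.

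*Elovl6* (chromosome 3, 129532386 to 129638495, forward strand) lengthens palmitate to stearate, the step before desaturation. It stood at 101.3, 53.9 and 54.7 CPM in parental libraries, 54.9, 95.4 and 66.2 CPM in those of E6.1, 36.5, 45.4 and 39.9 CPM in those of E6.2, 185.0, 111.4 and 131.5 CPM in those of E7.1, and 89.4, 84.3 and 42.3 CPM in those of E7.2. All E7.1 libraries were above all other libraries, while the 3 E7.2 libraries lay within the E6 range. The E7 clones were 1.87-fold higher (log2 fold change 0.90, SE 0.22, adjusted p = 0.0222).

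*Fasn* (chromosome 11, 120805940 to 120824178, reverse strand) encodes the fatty acid synthase that builds palmitate. Its level was 117.1, 88.9 and 67.2 CPM for parental cells, 82.0, 108.2 and 71.0 CPM for E6.1, 103.5, 78.8 and 81.9 CPM for E6.2, 237.8, 144.6 and 178.0 CPM for E7.1, and 117.0, 147.5 and 89.7 CPM for E7.2. Unlike *Scd1* and *Scd2*, *Fasn* in E6.2 lay within the parental range, and the E7.1 libraries lay above the parental ones. *Fasn* was 1.70-fold higher in the E7 clones (log2 fold change 0.76, SE 0.18, adjusted p = 0.0174).

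*Acly* (chromosome 11, 100476353 to 100528000, reverse strand) supplies cytosolic acetyl-CoA. It was measured at 285.1, 196.3 and 179.0 CPM in parental libraries, 199.6, 274.7 and 199.3 CPM in those of E6.1, 154.2, 162.3 and 181.6 CPM in those of E6.2, 408.8, 319.0 and 345.1 CPM in those of E7.1, and 299.0, 325.3 and 203.3 CPM in those of E7.2. All E7.1 libraries lay above the parental range, and E7.2 replicate 3 was again the E7 library within the E6 range. The E7 clones were 1.63-fold higher (log2 fold change 0.70, SE 0.15, adjusted p = 0.0135).

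Among oxidation genes, *Acaa2* encodes the thiolase that closes the mitochondrial spiral. It stood at 18.9, 12 and 14.1 CPM for parental cells, 14.2, 17.1 and 13.6 CPM for E6.1, 7.95, 11.7 and 12.9 CPM for E6.2, 22.9, 22.3 and 21.8 CPM for E7.1, and 19.9, 17.2 and 14 CPM for E7.2. E7.1 was above every other library and E7.2 overlapped the parental range. *Acaa2* was 1.53-fold higher in the E7 clones (log2 fold change 0.61, SE 0.15, adjusted p = 0.0214).

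*Hsd17b4* encodes the peroxisomal D-bifunctional protein, which hydrates and oxidizes the chain as it is shortened. Its level was 66.2, 60.1 and 66.7 CPM in parental libraries, 60.6, 66.5 and 61.3 CPM in those of E6.1, 46.8, 53.2 and 48.9 CPM in those of E6.2, 80.5, 77.4 and 74.7 CPM in those of E7.1, and 70.1, 73.9 and 62.5 CPM in those of E7.2. Replicates were close together, E6.2 lay below and E7.1 above the parental range. The difference was 1.31-fold and had the smallest adjusted p of the 8 (log2 fold change 0.39, SE 0.08, adjusted p = 0.00857).

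*Ehhadh* (chromosome 16, 21761287 to 21787844, reverse strand) encodes the L-bifunctional protein of peroxisomes, and followed another order. It stood at 13.9, 13.2 and 16.5 CPM for parental cells, 9.36, 12.1 and 10.3 CPM for E6.1, 6.06, 6.02 and 4.81 CPM for E6.2, 7.26, 13.5 and 9.72 CPM for E7.1, and 12.8, 12.2 and 14.1 CPM for E7.2. Parental cells were highest on average and E6.2 was below all other libraries. *Ehhadh* was 1.49-fold higher in the E7 than in the E6 clones (log2 fold change 0.57, SE 0.15, adjusted p = 0.028), although E7.1 replicates 1 and 3 lay within the E6 range.

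**Figure D2:**
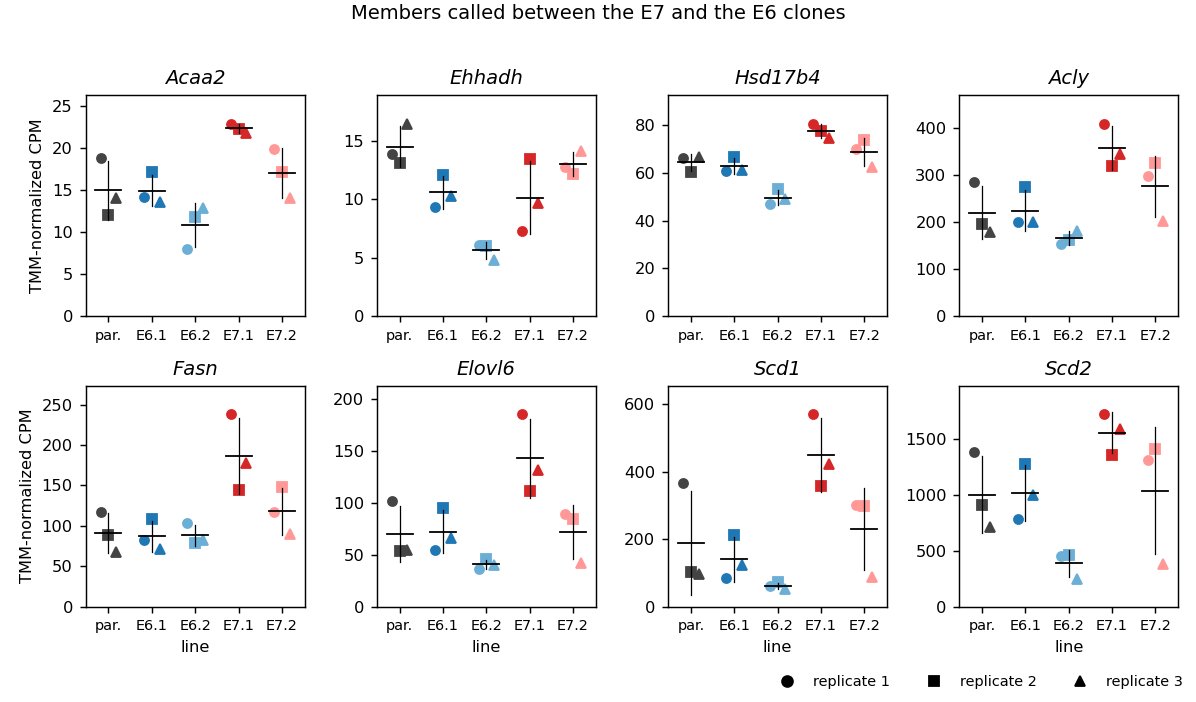
TMM-normalized CPM of the 8 members called between the E7 and the E6 clones, by line (par., parental), on linear axes that start at 0. Each point is 1 library, its shape gives the replicate, the horizontal bar is the mean and the vertical bar ± 1 SD (n = 3). E7.1 is above E6.2 in every library for these members, and E7.2 replicate 3 lies below the other E7.2 libraries except for *Ehhadh*.

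Upstream sequence was read for the members called in a comparison of lines that held a searched motif, and for the gap between the diverging genes *Hadha* and *Hadhb*. RefSeq windows on GRCm38.p6, from 250 bases before to 50 after a transcript start, were given for 28 of the 34 members (30 windows). No window was given for *Scd1*, *Scd2*, *Acaa2*, *Hsd17b4*, *Fads1* and *Decr1*, so the promoters of these members were not searched. Motifs were searched on both strands and do not overlap each other here. The SREBP element TCACNCCAC was found in *Ehhadh* and *Acsl1*, 2 of the 28 members, and in 1.44% of all genes with a window. The forkhead motif GTAAACA was found in *Elovl6*, and in 4.05% of all genes, and the E-box CACGTG in *Elovl5*, and in 8.09%. Below are 200 bases, from 250 to 51 before the start, of *Elovl6* (chr3:129532136-129532335, forward strand) and of *Ehhadh* (chr16:21787885-21788084, reverse strand), 5′ to 3′, and the 85 bases between *Hadha* and *Hadhb* (chr5:30155163-30155247, forward strand). Capitals mark the motif, which in *Ehhadh* stands on the opposite strand.
Elovl6: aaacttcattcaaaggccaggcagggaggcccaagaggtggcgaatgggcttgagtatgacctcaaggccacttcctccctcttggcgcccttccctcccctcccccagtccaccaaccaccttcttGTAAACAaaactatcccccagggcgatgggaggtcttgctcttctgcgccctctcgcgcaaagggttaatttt
Ehhadh: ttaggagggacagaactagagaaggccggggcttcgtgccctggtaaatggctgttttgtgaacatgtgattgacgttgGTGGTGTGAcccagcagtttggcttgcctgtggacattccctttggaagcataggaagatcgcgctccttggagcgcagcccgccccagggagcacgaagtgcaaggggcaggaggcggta
Hadha and Hadhb: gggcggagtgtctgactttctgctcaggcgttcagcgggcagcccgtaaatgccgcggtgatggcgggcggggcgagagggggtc
The forkhead match of *Elovl6* begins 123 bases before the start and the SREBP match of *Ehhadh* 171 bases before it. The gap between *Hadha* and *Hadhb* holds none of the 3 motifs and 69.4% G and C, beside a median of 52.7% over all windows. These matches are descriptions of letters in a window, and no binding was measured.

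For 6 of the 8 members (*Scd1*, *Scd2*, *Fasn*, *Acly*, *Acaa2* and *Hsd17b4*), E7.2 replicate 3 was the only E7 library not above all 6 E6 libraries. The 4 pairs of an E7 and an E6 clone, added after the pooled result was seen, gave different counts. E7.1 against E6.2 gave 10 of 32 members called, all higher, beside 16.9% of all tested genes called and 8.22% higher, and they were the 8 members above with *Hadh* (log2 fold change 0.58, adjusted p = 0.0496) and *Acadm* (0.38, adjusted p = 0.0483). E7.1 against E6.1 gave 1 (*Fasn*, log2 fold change 1.10, adjusted p = 0.0344) beside 3.24% of all genes called and 1.58% higher. E7.2 against E6.2 gave 2 higher (*Ehhadh*, 1.21, adjusted p = 0.00808; *Hsd17b4*, 0.47, adjusted p = 0.0335) beside 2.24% called and 1.52% higher. E7.2 against E6.1 gave 0 by edgeR beside 0.352%, with 2 at an unadjusted p under 0.05 (11.6% of all genes), and no other tool was run on the pairs. Without E6.2 replicate 3 and E7.2 replicate 3, E7.1 against E6.1 gave 8 higher and 2 lower (*Hadhb* and *Echs1*), beside 17.8% of all genes called, 9.9% higher and 7.94% lower. E7.1 against E6.2 then gave 21 higher (34.9% of genes called, 18.2% higher) and E7.2 against E6.2 gave 19 higher (17% called, 9.78% higher). E7.2 against E6.1 stayed at 0 (0.637%), with 7 at an unadjusted p under 0.05 (15.8%). Pairs that share a clone differ by the contrast within a guide, which is given with the other comparisons.

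**Figure D3:**
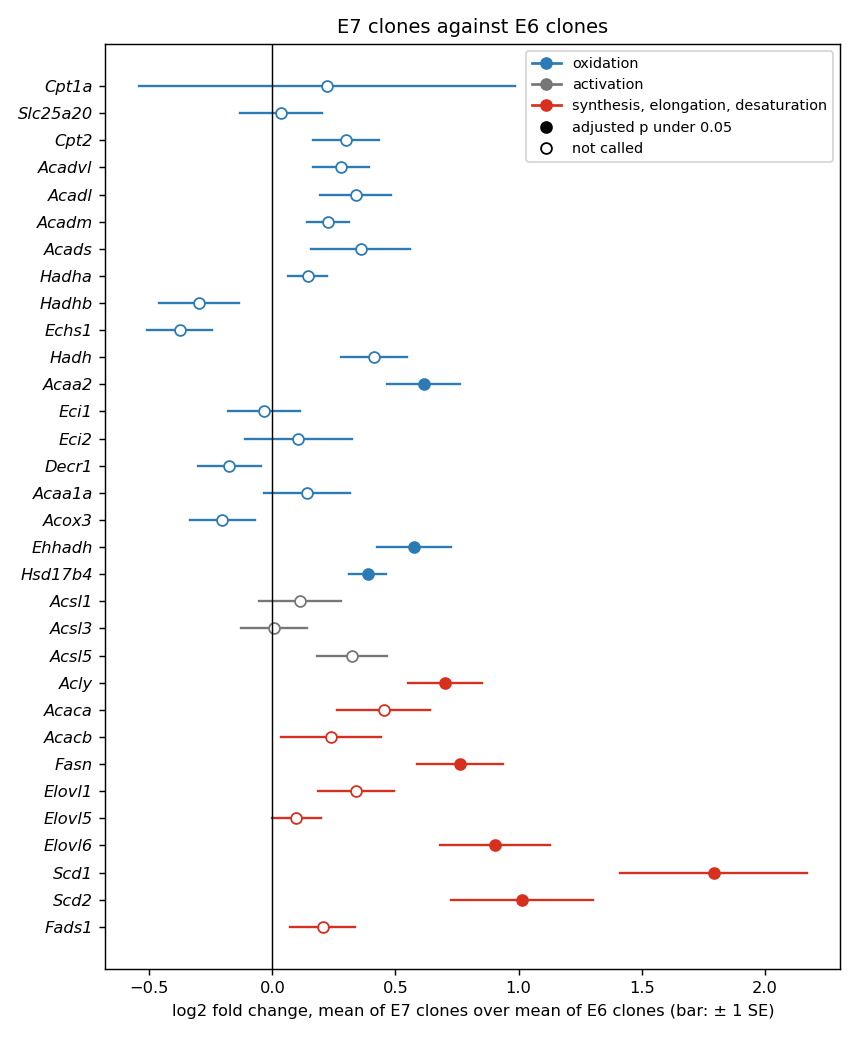
Log2 fold change of each tested member between the E7 and the E6 clones, with ± 1 SE from the edgeR fit of 15 libraries. Filled points are called at an adjusted p under 0.05. All 10 synthesis, elongation and desaturation members lie to the right of 0, from 0.10 (*Elovl5*) to 1.79 (*Scd1*), and the oxidation members span -0.38 (*Echs1*) to 0.61 (*Acaa2*).

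Each clone was also set against parental cells, to ask which levels moved with *Foxp1* editing; these 4 comparisons share the parental libraries. In E6.2, 1 of 32 members was called beside 1.17% of all tested genes called and 1.01% lower. *Ehhadh* was 2.58-fold lower there (log2 fold change -1.37, SE 0.22, adjusted p = 0.00435 from edgeR), and all 3 E6.2 libraries lay below all 3 parental ones. Fitted with only the lines compared, its adjusted p was 0.0731. In E6.1 edgeR called 0 members, beside 0.324% of all genes, with 1 lower at an unadjusted p under 0.05 (3.84% of all genes) and 0 by DESeq2's Wald test. For E7.1 it called 0, beside 1.22% of all genes, with 8 higher (9.94%) and 1 lower (10%) at an unadjusted p under 0.05 and 5 by DESeq2. For E7.2 it called 0, beside 0.295%, with 1 higher (5.98%) and 1 by DESeq2. The smallest adjusted p of a member in E7.1 was that of *Fasn* (log2 fold change 1.04, SE 0.25, adjusted p = 0.0559). Without parental replicate 1, in which *Scd1*, *Elovl6* and *Acly* were higher than in the other parental replicates, 5 members were called in E7.1. Over all genes, 169 were called in E7.1 with all 15 libraries and between 30 and 968 with 1 of the compared libraries left out. For the counts by DESeq2, here and below, all genes are given only as ranges over the alternatives, at the end. Whether these member counts exceed the share of all genes called by DESeq2 therefore cannot be read here.

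The medians showed opposite signs in E6.2 and E7.1. In E6.2 the median log2 fold change of the synthesis and desaturation members was -0.46, with 1 of 10 positive (56.7% of all genes), against -0.02 for oxidation and 0.06 for all genes. In E7.1 it was 0.60, with 8 of 10 positive (47.8% of all genes), against 0.09 for oxidation and -0.02 for all genes. The synthesis and oxidation medians were 0.03 and -0.01 in E6.1 and 0.11 and 0.19 in E7.2, where all genes had medians of 0.00. Without E6.2 replicate 3 and E7.2 replicate 3, they were 0.42 and 0.14 in E7.2 and -0.50 and -0.27 in E6.2. The mean of the 4 clones gave 0 members called by edgeR beside 0.503% of all genes, 3 at an unadjusted p under 0.05 (9.9% of all genes) and 1 by DESeq2's Wald test.

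Clones of the same guide were compared with each other as well. Between E6.2 and E6.1 edgeR called 0 members beside 1.24% of all genes, with 9 lower (5.34% of all genes) and 2 higher (7.59%) in E6.2 at an unadjusted p under 0.05 and 4 called by DESeq2's Wald test. *Acacb* (chromosome 5, 114146535 to 114250761), the carboxylase whose malonyl-CoA restrains carnitine entry, was among the 9. It stood at 8.41, 7.13 and 7.66 CPM in the E6.1 libraries and at 4.09, 3.90 and 2.95 CPM in those of E6.2, with no overlap, beside 9.28, 5.63 and 4.80 CPM in parental libraries, 3.94, 6.36 and 6.44 CPM in those of E7.1 and 8.56, 7.52 and 4.94 CPM in those of E7.2. The log2 fold change of -1.08 (SE 0.29) did not pass the adjustment (adjusted p = 0.103). Between E7.2 and E7.1 edgeR and DESeq2 called 0 members beside 0.59% of all genes by edgeR, with 3 at an unadjusted p under 0.05 (13.3% of all genes).

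A joint test that all 5 lines had the same level called 6 members (*Ehhadh*, *Hsd17b4*, *Acly*, *Fasn*, *Elovl6* and *Scd1*), 4 of the synthesis and 2 of the oxidation group, beside 6.28% of all tested genes. The count was 1 without E6.1 replicate 3, E7.1 replicate 1 or E7.1 replicate 3, and 14 without E6.2 replicate 3. Over all genes, 873 were called with all 15 libraries and between 353 and 2899 with 1 library left out. *Acaa2* (adjusted p = 0.0552) and *Scd2* (adjusted p = 0.068) fell short. *Acadvl*, the very-long-chain acyl-CoA dehydrogenase, was not called (adjusted p = 0.12). Its level was 17.7, 19 and 18.8 CPM for parental cells, 22.7, 23.7 and 23.5 CPM for E6.1, 16.5, 19.1 and 25.8 CPM for E6.2, 24.2, 27.4 and 25.7 CPM for E7.1, and 24.9, 24.9 and 32.1 CPM for E7.2. E6.1, E7.1 and E7.2 lay above the parental range and E6.2 overlapped it. Of its length, 42.9% is shared with the antisense gene *Dvl2*, and counting without strand left such pairs out, so the level of *Acadvl* is uncertain.

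By means over all 15 libraries, E7.1 was the highest of the 5 lines for 8 of the 10 synthesis and desaturation members. It was so for 25.8% of all tested genes. E6.2 was the lowest for 8, beside 20.5% of all tested genes, with both true of 6. Both were true of 7 of the 19 oxidation members (36.8%) and of 11.5% of all tested genes. The 7 were *Cpt2*, *Acadl*, *Acadm*, *Hadha*, *Hadh*, *Acaa2* and *Hsd17b4*.

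Summed levels were then compared between the arms, library by library, with no test since the members were a chosen list. The 19 oxidation members summed to 864 ± 32.2 CPM in parental libraries, 910.1 ± 8.24 in those of E6.1, 815 ± 138.1 in those of E6.2, 902 ± 39.9 in those of E7.1 and 932 ± 70.2 in those of E7.2 (SD, n = 3). The synthesis, elongation and desaturation members summed to 1942 ± 662 CPM for parental cells, 1918 ± 431 for E6.1, 1058 ± 100.8 for E6.2, 3159 ± 403 for E7.1 and 2121 ± 902 for E7.2. Line means of all libraries thus spread 1.14-fold for oxidation and 2.99-fold for synthesis. Without replicate 3 of E6.2 and E7.2, the oxidation mean was 737.9 CPM in E6.2 and 891.5 CPM in E7.2, which widens the spread for oxidation. The synthesis means were then 1116 CPM in E6.2 and 2640 CPM in E7.2. *Scd1* and *Scd2* held 31.9% to 65.0% of the synthesis sum, and without them it ran from 609.6 ± 34.3 CPM in E6.2 to 1151 ± 117.9 CPM in E7.1. The synthesis sum divided by the oxidation sum, read across libraries only, ranged from 0.972 in E6.2 replicate 3 and 1.07 in E7.2 replicate 3 to 4.16 in E7.1 replicate 1. Without those replicates 3, the mean ratio was 1.52 in E6.2 and 2.96 in E7.2, and the lowest of the 13 libraries was 1.44.

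**Figure D4:**
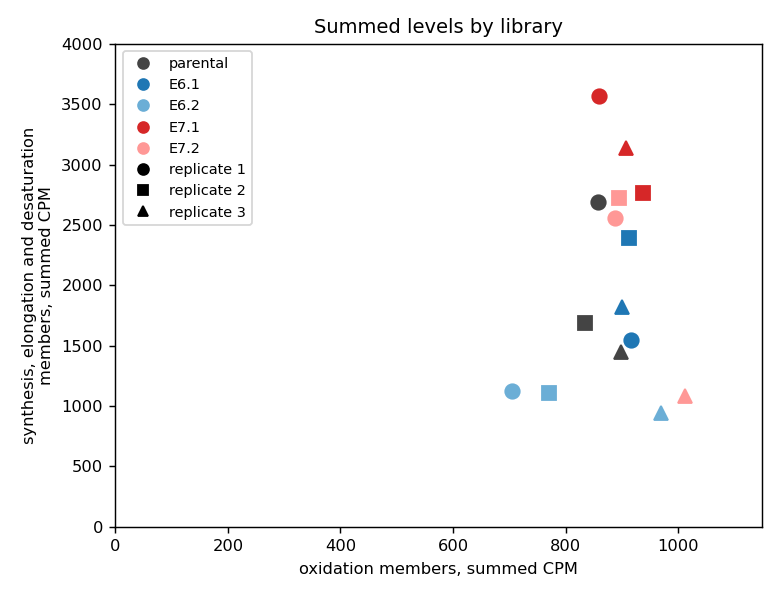
Summed CPM of the 19 oxidation members (horizontal axis) against that of the synthesis, elongation and desaturation members (vertical axis), both linear from 0. Each point is 1 library, colored by line and shaped by replicate. Libraries differ 3.79-fold on the vertical and 1.44-fold on the horizontal axis, with E7.1 at the top and E6.2 and E7.2 replicate 3 at the bottom.

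*Cpt1a* (chromosome 19, 3323301 to 3385732) was at 117.9 CPM in E6.2 replicate 3 and 105.6 CPM in E7.2 replicate 3, and between 3.48 and 13.3 CPM in the other 13 libraries. Its count was 3921 and 3291 in these libraries, so that depth does not limit the reading. In E6.2 replicates 1 and 2 it was 4.21 and 3.48 CPM, and in E7.2 replicates 1 and 2 it was 10.6 and 10.4 CPM. The log2 fold changes against parental cells, 2.13 (SE 1.12, adjusted p = 0.43) in E6.2 and 2.14 (SE 1.12, adjusted p = 0.417) in E7.2, each rested on 1 library. Without both libraries they were -1.32 (SE 0.32, adjusted p = 0.0515) in E6.2, of the opposite sign, and 0.17 (SE 0.30, adjusted p = 0.784) in E7.2.

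*Slc25a20*, the carnitine carrier of the inner membrane, was at 29.0 and 30.9 CPM in these libraries and at 15.7 to 22.6 CPM in the others. *Eci2*, an enoyl-CoA isomerase, was at 71.6 and 61.5 CPM, against 25.1 to 43.9 CPM. *Acaa1a*, a peroxisomal thiolase, was at 17.2 and 18 CPM, against 8.62 to 10.8 CPM. *Acox3*, *Acads* and *Acsl1* also had their highest levels of the 15 in these libraries, whereas *Cpt2*, *Hadhb* and *Scd2* had their lowest. In all, 7 of 32 members (21.9%) were highest in both, beside 14.3% of all genes, and 3 (9.38%) lowest in both, beside 11.7%. By arm, 6 of the 19 oxidation members (31.6%) were highest in both and 2 (10.5%) lowest, beside the same 14.3% and 11.7% of all genes. Of the 10 tested synthesis and desaturation members, 0 were highest and 1 lowest. These counts are small, and no difference between the arms was tested.

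**Figure D5:**
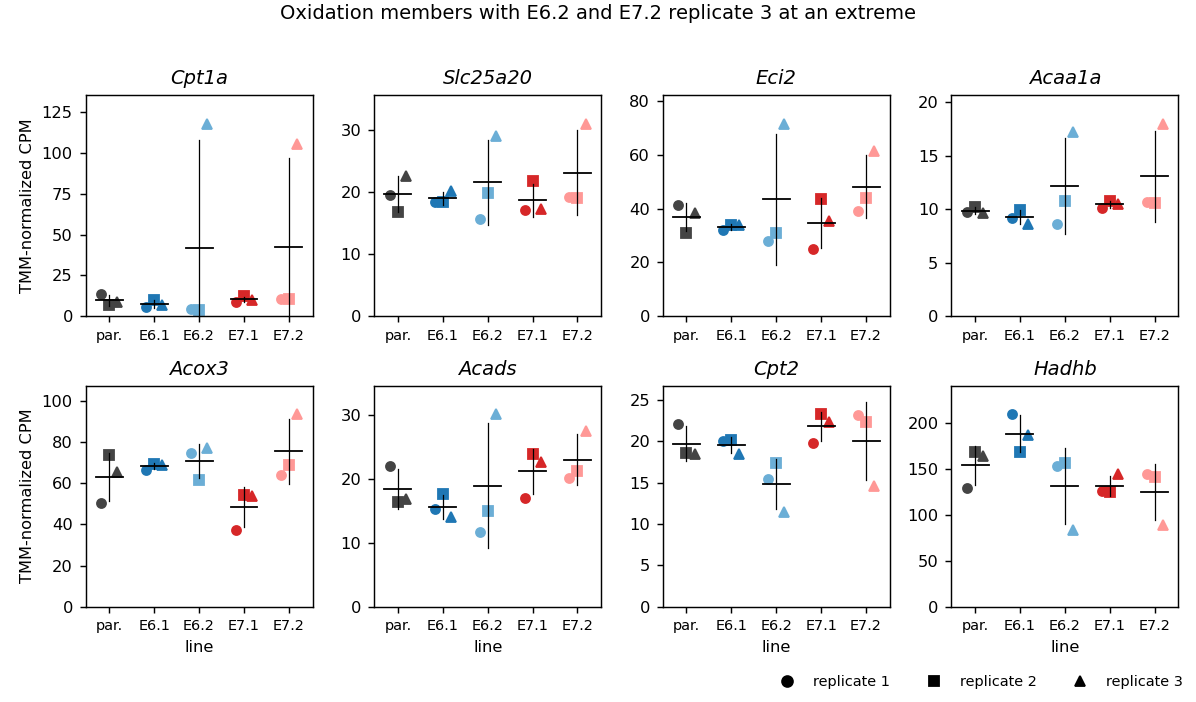
TMM-normalized CPM of 8 oxidation members by line, with linear axes from 0, points for libraries, horizontal bars for means and vertical bars for ± 1 SD (n = 3), which end at the axis where they would pass below 0. E6.2 and E7.2 replicate 3 (triangles) are the highest points for *Cpt1a*, *Slc25a20*, *Eci2*, *Acaa1a*, *Acox3* and *Acads* and the lowest for *Cpt2* and *Hadhb*.

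Without these libraries the calls were many more, among members and among all genes. Between the E7 and the E6 clones 21 members were called, 20 higher and 1 (*Hadhb*) lower, beside 33.1% of 14284 genes, with 18.5% higher and 14.7% lower. They included the 8 members above. By arm, 11 of the 19 oxidation members and 8 of the 10 synthesis and desaturation members were higher. *Cpt1a* was then higher in the E7 clones (log2 fold change 0.97, SE 0.22, adjusted p = 0.00576), as were *Acadl* (0.52, adjusted p = 0.00347), *Hadh* (0.56, adjusted p = 0.0032) and *Fads1* (0.43, adjusted p = 0.00341). By clone pair, *Cpt1a* in E7.1 and E7.2 was 1.44 and 1.49 against E6.2 (adjusted p = 0.00603 and 0.0145). Against E6.1 it was 0.46 and 0.51 (adjusted p = 0.251 and 0.409). *Acadl*, *Hadh* and *Fads1* were likewise called in both E7 clones against E6.2 and in neither against E6.1.

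In E7.1 against parental cells 11 members were higher without these libraries, beside 15.2% of genes called and 8.8% higher. They were *Fasn*, *Elovl6*, *Acly*, *Acaca*, *Elovl1* and *Fads1* of synthesis, *Acadvl*, *Hadha*, *Acaa2* and *Hsd17b4* of oxidation, and *Acsl5*. Neither *Scd1* nor *Scd2* was among them. The libraries left out belong to neither parental cells nor E7.1, but all lines of a fit share an estimate of spread. The median log2 fold change of the synthesis and desaturation members in E7.1 was 0.62 without these libraries and 0.60 with all 15. Why the count of calls rose was not tested. In E6.2 4 members were lower (*Ehhadh*, *Acadl*, *Elovl5* and *Scd2*) beside 2.26% called and 1.68% lower, with 2 libraries left for that clone. Against E6.1, *Fads1* and *Scd2* were lower in E6.2 beside 3.39% called and 1.86% lower. The joint test called 19 members beside 28.6%, and edgeR called 0 members in E6.1 (beside 0.924%), E7.2 (1.53%), the mean of the clones (1.16%) and E7.2 against E7.1 (0.763%). At an unadjusted p under 0.05 these held 6, 7, 4 and 3 members, beside 13.2%, 19.7%, 16.2% and 10.8% of all genes, and no other tool was run without these libraries.

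Of the other oxidation members, the acyl-CoA dehydrogenases, which start each turn of the spiral, had log2 fold changes between the E7 and the E6 clones of 0.23 (*Acadm*) to 0.36 (*Acads*), none called by edgeR with all 15 libraries and all 4 called higher without E6.2 replicate 3 and E7.2 replicate 3. For *Acadl* the line means ran from 95.8 CPM in E6.2 to 144.2 CPM in E7.1. *Hadha* and *Hadhb*, which encode the alpha and beta subunits of the mitochondrial trifunctional protein, had values of opposite sign. With all 15 libraries neither was called. *Hadha* had a log2 fold change of 0.14 (SE 0.08, adjusted p = 0.235) and *Hadhb* of -0.30 (SE 0.16, adjusted p = 0.23) between the E7 and the E6 clones. In the 13 libraries *Hadha* was called higher (0.24, adjusted p = 0.0182) and *Hadhb* lower (-0.29, adjusted p = 0.0324). By clone pair there, *Hadha* in E7.1 and E7.2 was 0.45 and 0.37 against E6.2 (adjusted p = 0.0058 and 0.0358). Against E6.1 it was 0.12 and 0.04 (adjusted p = 0.372 and 0.884). *Hadhb* in E7.1 and E7.2 was -0.50 and -0.37 against E6.1 (adjusted p = 0.0185 and 0.223). Against E6.2 it was -0.21 and -0.08 (adjusted p = 0.239 and 0.725). In CPM, *Hadhb* was 129.3, 168.3 and 163.9 in parental libraries, 209.4, 169.0 and 187.1 in those of E6.1, 153.2, 156.9 and 83.9 in those of E6.2, 125.5, 124.4 and 144.5 in those of E7.1, and 144.0, 140.9 and 89.1 in those of E7.2. E6.1 was above E7.1 and E7.2 in every library.

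*Echs1*, the short-chain hydratase, had a log2 fold change of -0.38 (SE 0.13, adjusted p = 0.0765), the lowest of the members, and *Hadh*, the hydroxyacyl-CoA dehydrogenase, one of 0.41 (SE 0.13, adjusted p = 0.0576). The auxiliary enzymes for unsaturated chains, *Eci1*, *Eci2* and *Decr1*, ranged from -0.17 to 0.11, and *Acox3* and *Acaa1a* of peroxisomes stood at -0.20 and 0.14. *Cpt2*, the inner carnitine transferase, was at 0.30 and *Slc25a20* at 0.03. The 3 synthetases ranged from 0.01 (*Acsl3*) to 0.32 (*Acsl5*), with *Acsl5* means from 323 CPM in E6.2 to 482 CPM in E7.1. None of these members was called with all 15 libraries.

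Of the other synthesis members, *Acaca*, the cytosolic acetyl-CoA carboxylase, had a log2 fold change of 0.45 (SE 0.19, adjusted p = 0.124) between the E7 and the E6 clones, with means from 137.2 CPM in E6.2 to 232.6 ± 3.95 CPM in E7.1. *Elovl1*, *Elovl5* and *Fads1*, which act on very long and polyunsaturated chains, had 0.34, 0.10 and 0.20, none called. *Elovl5* stood at 63.3 ± 7.68 CPM in E6.2 and at 90.3 ± 1.75 CPM in parental cells, with no overlap of libraries and a log2 fold change of -0.51 (SE 0.14) that did not pass the adjustment (adjusted p = 0.134).

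Replicates of a line spread widely for some members. In 10 of the 32 members the highest library of a line was more than 2-fold above the lowest of that line, and in 9 of these the widest line was E6.2 or E7.2. Without replicate 3 of those clones, 1 member of the 32 had such a spread. Of the 34 members, 8 share exon bases with another gene. Beside *Acadvl*, the shares were 7.70% for *Acox3*, 7.23% for *Eci2*, 6.57% for *Acaa1a* (with *Myd88*) and 5.60% for *Acsl3* (with *Utp14b*), and under 2% for *Hadha*, *Elovl1* and *Scd2*.

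From a list of 57 other genes of fatty acid metabolism and its regulators, 45 were tested. Between the E7 and the E6 clones 3 were higher and 3 lower, beside the 12.1% called over all genes. *Cd36*, a fatty acid transporter of the cell surface, had a log2 fold change of 2.29 (SE 0.24, adjusted p = 0.000116). It stood at 42.3, 24.0 and 43.6 CPM for parental cells, 12.8, 15.6 and 12.9 CPM for E6.1, 6.65, 10.2 and 4.87 CPM for E6.2, 54.8, 25.2 and 38.5 CPM for E7.1, and 73.1, 65.8 and 42.1 CPM for E7.2. All E6 libraries were below all parental and E7 libraries. *Fabp5*, a fatty acid binding protein, was higher by 1.27 (adjusted p = 0.0328) and *Insig1*, a sterol-regulated brake on SREBP, by 0.92 (adjusted p = 0.0462). *Nr1h3*, which encodes the sterol receptor LXR alpha, was lower with a log2 fold change of -1.97 (adjusted p = 0.000783) at means of 0.309 CPM in E7.1 and 2.46 CPM in E6.2. *Prkaa2* (-0.42, adjusted p = 0.0332), a catalytic subunit of AMP-activated kinase, and *Acad11* (-0.46, adjusted p = 0.0363), an acyl-CoA dehydrogenase, were lower too.

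The citrate carrier *Slc25a1*, which feeds *Acly*, had a log2 fold change of 0.81 between the E7 and the E6 clones (SE 0.25, adjusted p = 0.0516). The transcription factors *Srebf2* (0.57, SE 0.19, adjusted p = 0.0682) and *Srebf1* (0.31, SE 0.17, adjusted p = 0.242) did not pass the threshold, nor did *Mlycd*, which degrades malonyl-CoA (-0.19, adjusted p = 0.292). *Ppara* held 0 to 3 counts per library and was not tested. Against parental cells, E6.2 was lower in *Cd36* (-2.34, adjusted p = 0.00199) and *Prkaa1* (-0.69, adjusted p = 0.0233), and E7.1 in *Nr1h3* (-1.68, adjusted p = 0.0483) and *Prkaa2* (-0.89, adjusted p = 0.0223). *Acsbg1*, an acyl-CoA synthetase, was lower in E6.2 than in E6.1 (-3.08, adjusted p = 0.0461). The joint test over the lines called *Acsbg1*, *Cd36*, *Nr1h3*, *Prkaa1* and *Prkaa2*.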

How the data were processed

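Total RNA of 15 A20 cultures was sequenced as paired libraries. The authors aligned reads to mm10 with HISAT, used SAMtools, and deposited raw counts of read pairs per gene from featureCounts 1.5.0. Per the file headers the annotation was GRCm38 with ERCC spike-ins, strand was not used, and pairs with several matches or genes were not counted. The 92 spike-ins held 0 counts and were left out.

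Counts were fitted in R 4.3.3 with edgeR 4.0.16 (filterByExpr by line, TMM, quasi-likelihood F test with legacy = TRUE) over all 15 libraries, with line as the factor. Adjustment followed Benjamini and Hochberg over 13904 genes within each of 9 comparisons, and genes were called at an adjusted p under 0.05. RPKM divide CPM by the length in the files. The fit was also run on simulated counts with genes changed in both E7 clones. The simulation held no libraries that stood apart, so it cannot show how stable the calls here are. The members, gene lists and comparisons were chosen with earlier results of these data known.

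Values in every library are given for members called in a comparison and for the 10 with the smallest p in the joint test; *Hadhb*, *Cpt1a* and *Cd36* were added after their values were seen. Other named genes are members, or listed genes called or always named (*Mlycd*, *Slc25a1*, *Srebf1*, *Srebf2*, *Ppara*). A further gene of that list is not reported here. Alternatives were DESeq2 1.42.0 (size factors, or its Wald test, and its likelihood ratio test for the joint test), no filter, edgeR's likelihood ratio test and legacy = FALSE, only the lines compared, a replicate block, an added 2-fold threshold, and leaving out libraries. No pair of replicates of the same line agreed within sampling noise, and pairs from different lines were not compared in this way. Intervals of depth cover counting error only.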

Additional observations from a re-analysis of the deposited data

Results flagged for a closer look

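The 8 members called between the E7 and the E6 clones were each flagged because a test of the difference between the groups of clones passed the threshold (edgeR, 15 libraries). Their log2 fold changes were 1.79 for *Scd1*, 1.01 for *Scd2*, 0.90 for *Elovl6*, 0.76 for *Fasn*, 0.70 for *Acly*, 0.61 for *Acaa2*, 0.57 for *Ehhadh* and 0.39 for *Hsd17b4*, all higher in the E7 clones, beside 6.21% of all tested genes higher. Single pairs of an E7 and an E6 clone gave between 0 (E7.2 against E6.1) and 10 (E7.1 against E6.2) members called. Between clones of the same guide edgeR called 0 members with all 15 libraries, as given above with the unadjusted counts and those of DESeq2. *Foxp1* RNA was lower in the E7 clones than in the E6 clones (log2 fold change -1.09, adjusted p = 0.000609), and its part in the result was not tested. No group had more than 3 libraries of 1 line, so no flag was set for outlying values of single libraries. The libraries E6.2 replicate 3 and E7.2 replicate 3, which stood apart, are described above.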

How the results depend on the processing

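Of the 9 comparisons, members called changed with the setting in 7 and stayed at 0 in E6.1 and between E7.2 and E7.1. In E6.2 the count of 1 was 2 without a filter, 5 with DESeq2's Wald test, 2 with edgeR's likelihood ratio test and 0 with only the lines compared, where the adjusted p of *Ehhadh* was 0.0731 (lowest over its alternatives 8.26e-07). In E7.1 the count of 0 was 2, 5 and 3 under the first 3 settings, and 1 with legacy = FALSE and 1 with the replicate block; the replicate block moved no other count of members by over 1.5 times. Replicate numbers were not taken as pairs: 11 of 30 same-numbered pairs had a correlation of deviations over 0.1 (mean 0.0531). They include all 3 of E6.2 with E7.2 (0.174, 0.276 and, for the libraries that stood apart, 0.426), although E6.2 replicate 2 correlated more with E7.2 replicate 1 (0.311). Between E6.2 and E6.1 the 0 became 2, 4 and 3. DESeq2 gave 1 in E7.2, 1 for the mean of the clones and 11 in the joint test (6 by edgeR). An added 2-fold threshold left 2 of the 8 members between the E7 and the E6 clones. With E6.2 replicate 3 and E7.2 replicate 3 both left out, the counts were 4 in E6.2, 11 in E7.1, 21 between the E7 and the E6 clones, 2 between the E6 clones and 19 in the joint test. The clone pairs, in place of the pooled contrast, gave 1, 0 and 2 beside the 10 of E7.1 against E6.2, and without those libraries 10, 0 and 19 beside 21.

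With 1 library left out at a time, the counts ran from 1 to 2 in E6.2 (2 without its replicate 3), from 0 to 5 in E7.1, from 2 to 16 between the E7 and the E6 clones, and from 1 to 14 in the joint test. In the same order, the counts over all genes ran from 83 to 214, from 30 to 968, from 399 to 3847 and from 353 to 2899. Between the E7 and the E6 clones 2 members were called without E6.1 replicate 1, 3 without E6.1 replicate 3, 4 without E7.2 replicate 1, 3 without E7.2 replicate 2 and 16 without E6.2 replicate 3. In the joint test the count was 1 without E6.1 replicate 3, E7.1 replicate 1 or E7.1 replicate 3, 2 without E6.1 replicate 1, 3 without E6.2 replicates 1 or 2, E7.1 replicate 2 or E7.2 replicate 1, 10 without E7.2 replicate 3 and 14 without E6.2 replicate 3. *Scd1* was called under all 21 alternatives that kept the pooled contrast (adjusted p up to 0.0455). By clone pair with all 15 libraries, *Scd1* was called only in E7.1 against E6.2 (adjusted p = 0.00734). Its adjusted p was 0.0878 in E7.1 against E6.1, 0.0851 in E7.2 against E6.2 and 0.599 in E7.2 against E6.1. Among the alternatives with the pooled contrast, *Hsd17b4* was lost with the added 2-fold threshold alone (adjusted p up to 0.0375). None of the 8 members changed direction between the E7 and the E6 clones. *Cpt1a* in E6.2 did, from 2.13 to -1.32 without both libraries and -1.29 without E6.2 replicate 3 (2.68 without E6.2 replicate 2). The cause of these changes was not tested.

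Over all genes, called counts ranged over the alternatives from 28 to 155 in E6.1 (45 as reported), 45 to 398 in E6.2 (163), 30 to 2166 in E7.1 (169), 14 to 254 in E7.2 (41), 26 to 178 for the mean of the clones (70), 399 to 4734 between the E7 and the E6 clones (1677), 68 to 484 between the E6 clones (173), 43 to 287 between the E7 clones (82) and 353 to 4079 in the joint test (873). Shares of all genes are not given by setting. Member counts with DESeq2, without a filter or with the likelihood ratio test thus cannot be set against their own background. The median of the synthesis members in E7.2 was 0.42 without its replicate 3 and 0.44 without parental replicate 1, and that of the oxidation members in E6.2 was -0.24 without its replicate 3.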
